A study of Mus musculus with 12 samples.

Results

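Contraction of the mouse gastrocnemius, the large calf muscle, was examined over both genotypes of the study together. All 6 libraries from contracted right legs were compared with all 6 libraries from uncontracted left legs, so the comparison used 12 of the 12 libraries. The study measured polyadenylated RNA by 3′ end sequencing in the muscle of 6 mice, 3 labelled control and 3 labelled as over-expressing Myc, the proto-oncogene transcription factor. Every mouse was a female C57BL/6J aged 11 weeks, and each gave a left and a right leg that the titles tie together by genotype and number. The 4 groups were therefore control uncontracted, control contracted, Myc uncontracted and Myc contracted muscle, with 3 animals in each. In all 6 animals the contracted leg was the right one, so the effect of contraction and that of body side cannot be told apart. The sources used here do not say by what means Myc was raised, how the muscle was made to contract or how much time passed before it was taken. Genotype entered the fit as a covariate, and the genes described are chiefly those that changed by less than 2-fold and those that fell.

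Skeletal muscle answers a bout of contraction with new transcription in several waves. Immediate early genes and mechanical sensors of the sarcomere rise first and steeply, chaperones follow, and slower and smaller shifts occur in genes of fuel use, insulin signalling and the circadian clock. A messenger RNA that is no longer made disappears only as fast as it decays.

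The label checks came out differently for genotype and leg. Myc itself had 0, 1 and 0 reads in the uncontracted control libraries and 11, 9 and 9 in the uncontracted Myc libraries. In contracted muscle it had 1, 10 and 59 reads in the libraries labelled control 1, 2 and 3, and 32, 0 and 2 in those labelled Myc 1, 2 and 3. Contracted libraries 2 and 3 thus had more Myc reads where labelled control than where labelled Myc, against the order of the genotype labels. Myc had too few reads to be tested, so its own response to contraction was not tested either. The same labels tie the legs into animals, so the pairs numbered 2 and 3 of either genotype are in doubt too. That bears on every count by animal, every line joining 2 legs and every left-out animal given below. Every value, call or test by genotype rests on the labels in doubt as well. Leg labels were not in doubt by the same means: Rrad, a small GTPase-like protein that restrains calcium channels, was at 0.613 to 2.31 CPM (counts of a gene relative to the library total, after TMM scaling) in the 6 uncontracted libraries and at 56.5 to 183 CPM in the 6 contracted ones. Because the direction of contraction does not rest on the genotype label, the fit was also run on leg alone, and 461 genes were called in place of 450, 444 of them in both fits. Total counts ran from 1371732 to 1643216 reads, so that 1 read was worth 0.609 to 0.729 CPM. The 12 genes chosen as defining markers of skeletal muscle were all tested, and none was called with an adjusted p under 0.05. On the first principal component, which held 36.5% of the variance, the contracted libraries of control 1 and Myc 1 stood at 5.90 and 2.76, between the uncontracted libraries (-21.9 to -9.98) and the other contracted ones (18.7 to 26.0).

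Contraction raised more genes than it lowered, and the falls were small. Of 5956 genes tested with edgeR's quasi-likelihood test, 450 (7.56%) had a Benjamini-Hochberg adjusted p under 0.05. The higher group held 340 genes (5.71%) and the lower group 110 (1.85%). Among the genes that fell, 101 (1.7% of all tested) did so by less than 2-fold and 9 (0.151%) by 2-fold or more, while 175 (2.94%) rose by less than 2-fold and 165 (2.77%) by more. The median fall in the group under 2-fold was 1.49-fold and the median rise 1.68-fold, and the smallest called changes were 1.22-fold down and 1.26-fold up. Over all tested genes the median log2 change was -0.00. A test against a change of more than 2-fold (edgeR's glmTreat) called 66 genes (1.11%), of which 64 were higher and 2 lower, against 119 (2.0%) beyond 1.5-fold and 252 (4.23%) beyond 1.2-fold.

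**Figure D1:**
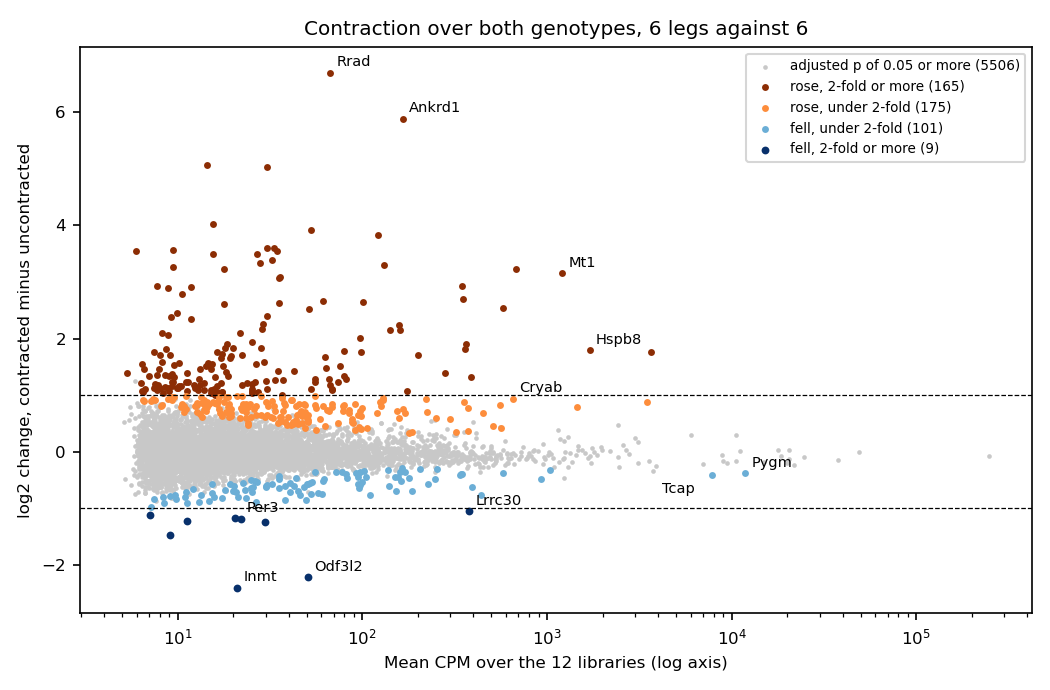
Each point is 1 of the 5956 tested genes, placed by its mean CPM over the 12 libraries (log axis) and its log2 change, contracted minus uncontracted, and coloured by direction and size where the adjusted p was under 0.05. The dashed lines mark 2-fold. Most of the 110 lower genes sit between the lower line and 0, with Inmt and Odf3l2 far below it, whereas the higher genes reach a log2 change of 6.69 at Rrad.

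The 101 genes that fell by less than 2-fold together made up a mean of 34306 CPM in uncontracted and 25660 CPM in contracted muscle, a difference of -8646 CPM, and 35.6% of that difference came from Pygm alone. The 175 genes that rose by less than 2-fold went from a mean of 12957 to 21301 CPM, and 24.1% of that difference came from the mitochondrial ribosomal RNA mt-Rnr2. These are bulk samples, so fewer cells of a type and less RNA per cell cannot be told apart.

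The 9 genes that fell by 2-fold or more were Inmt, Odf3l2, Arrdc2, Slc25a25, Sult1a1, Per3, Mxra8, Acvr1b and Lrrc30. The strongest fall was that of Inmt (ENSMUSG00000003477, chr6:55170626-55175043 in GRCm38, minus strand), which encodes an enzyme that methylates indole amines such as tryptamine. Inmt stood at 22.2, 37.1 and 44.5 CPM (lowest, median, highest) in uncontracted and at 3.61, 6.28 and 10.6 CPM in contracted muscle. No contracted library reached the lowest uncontracted one. Its log2 change was -2.40 ± 0.22 (SE, 6 legs against 6), with an edgeR adjusted p of 8.18e-08, and it was lower in 6 of 6 animals. Odf3l2 (chr10:79639526-79645738, minus strand), named for its likeness to a sperm tail protein, went from 34.9, 86.3 and 114 CPM to 10.5, 18.2 and 25.1 CPM. Again the groups did not overlap, and the log2 change was -2.21 ± 0.24 with an edgeR adjusted p of 1.07e-06. Inmt and Odf3l2 were the 2 genes shown to have fallen by more than 2-fold in the glmTreat test.

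The promoters of Inmt and Per3 are shown by a rule on p and motif. Of the named genes that fell, these had the smallest p among those whose window held a searched motif other than the GC box. The D-box is the site of the clock output factors Dbp and Tef. It was held by 1 of the 10 promoters of the genes that fell by 2-fold or more, that of Per3, and its part in the fall was not tested. Both windows are from RefSeq on GRCm38.p6, from 250 bases before to 50 bases after the start of transcription, minus strand, chr6:55174941-55175240 for Inmt and chr4:151044616-151044915 for Per3. Capitals mark the letters TATAAA, searched as a core promoter motif, in Inmt and the D-box, TTATGTAA, in Per3.
Inmt: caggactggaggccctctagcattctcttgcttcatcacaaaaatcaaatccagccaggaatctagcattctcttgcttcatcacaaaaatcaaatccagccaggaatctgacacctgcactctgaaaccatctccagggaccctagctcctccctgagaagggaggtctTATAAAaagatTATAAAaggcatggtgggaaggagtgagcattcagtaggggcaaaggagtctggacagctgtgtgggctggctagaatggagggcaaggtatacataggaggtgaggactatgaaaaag
Per3: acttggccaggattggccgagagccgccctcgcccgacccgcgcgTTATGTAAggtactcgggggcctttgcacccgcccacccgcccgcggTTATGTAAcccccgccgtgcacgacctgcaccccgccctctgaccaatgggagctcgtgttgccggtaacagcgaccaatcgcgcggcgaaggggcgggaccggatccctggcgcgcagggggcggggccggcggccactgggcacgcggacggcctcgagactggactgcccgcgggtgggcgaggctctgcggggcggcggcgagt
The 2 D-boxes of Per3 lie 205 and 158 bases upstream of the start. Across the 6068 promoters of tested genes, 0.544% held this motif on either strand, and of the 94 promoters of genes that fell by less than 2-fold 1.06% did.

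Lrrc30 (chr17:67630964-67632723, minus strand), a leucine-rich repeat gene, was the most abundant of the genes that fell by 2-fold or more. It went from 445, 488 and 673 CPM in uncontracted to 187, 244 and 318 CPM in contracted muscle, with a log2 change of -1.05 ± 0.14 and an edgeR adjusted p of 1.05e-05. The contracted libraries of control 1 and Myc 1 held the highest contracted levels, 298 and 318 CPM, still under every uncontracted library. Acvr1b, a type I receptor of activins and myostatin, fell from a median of 9.48 to one of 4.42 CPM (log2 change -1.11 ± 0.24) without overlap. Arrdc2, an arrestin-domain gene induced by fasting and glucocorticoids in muscle, went from 6.35, 11.9 and 20.9 CPM to 2.60, 5.16 and 6.89 CPM, a log2 change of -1.48 ± 0.31, and its groups overlapped at 1 uncontracted library. Slc25a25 (log2 change -1.24 ± 0.26), a mitochondrial ATP and phosphate carrier, Sult1a1 (-1.21 ± 0.26), a sulphotransferase, and Mxra8 (-1.17 ± 0.19), a matrix remodelling protein, share exons with genes on the opposite strand, and no strand setting is stated, so their reads cannot be assigned with certainty. Exons shared with another gene on either strand were found for 42 of the 133 named genes, among them Rrad, Pik3ip1, Foxo1, Csf1r, Asb5, Arf6, Tgm2, Nrap, Brd2, Wdr43 and Tgfb2.

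Most genes of the circadian clock list that passed the test fell. Of 28 listed genes 19 were tested, 6 fell (Per3, Dbp, Tef, Nr1d1, Nr1d2 and Tcap), Bhlhe41 rose and 12 did not pass. Tcap, a Z-disc gene, is counted here and again in the list of mechanical stress and Z-disc genes. The share called was 36.8%, beside 7.56% of all tested genes. The list's median log2 change was -0.11, beside -0.00 over all genes. A negative log2 change was seen for 11 of the 19, beside 3018 of all 5956 tested genes. Per3, a period protein of the repressing arm of the clock, stood at 22, 30.4 and 41.1 CPM in uncontracted and at 10.8, 13 and 17.2 CPM in contracted muscle. Its groups did not overlap, and its log2 change was -1.18 ± 0.17 with an edgeR adjusted p of 4.37e-05. Dbp, a D-box activator, fell in 5 of 6 animals (log2 change -0.85 ± 0.17, edgeR adjusted p 0.00192). The exception was control 1, with 55.2 CPM in the uncontracted and 59.5 in the contracted leg, while the other 5 contracted libraries were at 25.5 to 44.9 CPM and all uncontracted ones at 53.5 to 72.5 CPM. Tef, a related factor, was lower in all 6 animals (342, 378 and 482 against 258, 300 and 327 CPM, log2 change -0.39 ± 0.10), with no overlap. The repressors Nr1d1 and Nr1d2 had log2 changes of -0.37 ± 0.11 and -0.35 ± 0.11, with edgeR adjusted p of 0.0339 and 0.0462. With the animal as a block both missed the threshold (0.0520 and 0.0790). Bhlhe41, a repressor that competes at E-boxes, went the other way, from 11.9, 13.9 and 15.4 CPM to 20, 33.3 and 37.1 CPM (log2 change 1.18 ± 0.17, edgeR adjusted p 3.33e-05), without overlap. Nr1d1 also lost its call when contracted control 2, contracted control 3, uncontracted control 2, contracted Myc 2 or uncontracted Myc 2 was left out (adjusted p up to 0.101). Nr1d2 lost its call without any one of 9 libraries, that is, all but uncontracted control 2, contracted control 1 and uncontracted Myc 1 (up to 0.125). In the fits without 1 library 4 to 6 genes of the clock list were called lower. Dbp, Tef, Nr1d1 and Bhlhe41 share exons with genes on the opposite strand. Tef, Nr1d1 and Nr1d2 are outside the naming rule and are given as the remaining lower members of the list.

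Genes that restrain insulin and growth signalling were among the falling ones, but some genes that limit muscle growth rose. Mstn, which encodes myostatin, and Trim63, a ubiquitin ligase of the atrophy list, were called higher, as was Eif4ebp1. Among 16 tested growth factor inhibitors and TGF-beta family genes 2 rose (Tgfb2 and Mstn) and none fell, a share of 12.5% beside 5.71% of all tested genes. Acvr1b, the receptor of activins and myostatin that fell by 2-fold or more, is not on that list. Of the 16 tested genes of that list, only 1 was called higher with the animal as a block. The same held when any 1 library was left out, except contracted control 1, contracted Myc 1 or uncontracted Myc 1 (2 called). In a list of 37 genes of insulin and FoxO signalling, 29 were tested, 5 fell (Arrdc2, Pik3ip1, Foxo1, Ddit4 and Foxo4), 2 rose (Igf1 and Irs2) and 22 did not pass, with a median log2 change of 0.06. The share called was 24.1%, beside 7.56% of all tested genes. Pik3ip1, an inhibitor of phosphoinositide 3-kinase, went from 14.6, 19.4 and 24.5 CPM to 5.28, 11.0 and 13.8 CPM, without overlap, a log2 change of -0.86 ± 0.20 with an edgeR adjusted p of 0.00889. Ddit4, which restrains the growth kinase complex mTORC1, went from 19.7, 36.1 and 44.3 CPM to 8.43, 20.6 and 26.2 CPM (log2 change -0.88 ± 0.22, edgeR adjusted p 0.0156) and was lower in 6 of 6 animals, though uncontracted control 1 lay inside the contracted range. Foxo1, the transcription factor that drives fasting and atrophy genes, went down in 5 of 6 animals (-0.69 ± 0.17 on the log2 scale, edgeR adjusted p 0.0143), and it missed the threshold when uncontracted Myc 2 was left out (0.0522). Foxo4, outside the naming rule, changed by -0.44 ± 0.12 and missed the threshold without contracted control 2 (0.0521) or contracted control 3 (0.0560). Sgk1, a kinase of the same signalling branch that was on no list and was chosen after its values were seen, went from 56.4, 65.2 and 75.6 CPM to 19.9, 43.2 and 52.3 CPM (log2 change -0.75 ± 0.16) without overlap. The rises of Igf1, the growth factor, and Irs2, the insulin receptor substrate, both outside the naming rule (0.60 ± 0.17 and 0.92 ± 0.26), were lost in 6 and 8 of the 12 fits without 1 library. Both were lost at once when contracted control 3, uncontracted control 2, contracted Myc 2, contracted Myc 3, uncontracted Myc 1 or uncontracted Myc 2 was left out.

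Among the fuel genes that passed the test, the rises were steeper than the falls. In the list of glycolysis and glycogen genes 34 of 43 were tested, 4 fell (Slc16a3, Phkg1, Ppp1r3c and Pygm), all by less than 2-fold, 2 rose (Hk2 and Slc2a1) and 28 did not pass, with a median log2 change of -0.13. The share called was 17.6%, beside 7.56% of all tested genes. Slc16a3, the monocarboxylate carrier that exports lactate from fast fibres, went from 179, 188 and 209 CPM to 104, 138 and 148 CPM. The groups were clear of each other, and the log2 change was -0.51 ± 0.09 with an edgeR adjusted p of 0.000768. Phkg1, the catalytic subunit of phosphorylase kinase, went from 106, 113 and 133 to 63.4, 74.3 and 103 CPM (log2 change -0.58 ± 0.11, edgeR adjusted p 0.00116), and its highest contracted value, in control 1, was just under the lowest uncontracted one. Its exons overlap Sumf2 on the opposite strand. Ppp1r3c, which tethers protein phosphatase 1 to glycogen and lies outside the naming rule, went from 323, 488 and 607 to 266, 292 and 396 CPM (log2 change -0.63 ± 0.14). Pygm, muscle glycogen phosphorylase, was lower in 6 of 6 animals, at 10918, 13499 and 15955 CPM against 9127, 9735 and 13872 CPM, where the value of 13872 came from contracted control 1. Its log2 change of -0.38 ± 0.11 was close to the threshold (edgeR adjusted p 0.0381). The call was lost on leaving out contracted control 2 or 3, uncontracted control 1 or 2, contracted Myc 2 or 3 or uncontracted Myc 3 (adjusted p up to 0.101). Hk2, the hexokinase that traps glucose in muscle, rose from 110, 152 and 204 CPM to 284, 634 and 807 CPM (log2 change 1.91 ± 0.22, edgeR adjusted p 2.04e-06).

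Among 38 tested genes of fatty acid uptake and oxidation 2 fell and 1 rose, a share of 7.89% called that is near the 7.56% of all tested genes, with a median log2 change of -0.07. Ucp3, the uncoupling protein of muscle mitochondria, went from 23.5, 51.8 and 63.3 CPM to 14.7, 29.3 and 35.5 CPM, a log2 change of -0.86 ± 0.20 with an edgeR adjusted p of 0.00668. It was lower in each of the 6 animals, and the groups overlapped at uncontracted control 1, whose level of 23.5 CPM stood apart from the other uncontracted libraries (47.8 to 63.3 CPM). Angptl4, a secreted inhibitor of lipoprotein lipase, rose (2.09 ± 0.35), while Gpihbp1, which anchors that lipase on capillaries, fell from 36.2, 52.8 and 58.3 to 27.1, 30.9 and 33.6 CPM without overlap (log2 change -0.71 ± 0.13, edgeR adjusted p 0.00111). None of the 75 tested nuclear genes of oxidative phosphorylation passed the test, and their median log2 change was -0.06.

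Sarcomere genes that fell were few and abundant. Tcap (ENSMUSG00000007877, chr11:98383811-98384953, plus strand), the titin cap of the Z-disc, was at 7719, 9111 and 9410 CPM in uncontracted and at 5941, 6735 and 7494 CPM in contracted muscle. Its 6 contracted libraries were all below its 6 uncontracted ones, although the log2 change was only -0.40 ± 0.09 (edgeR adjusted p 0.00466). Synpo, an actin-bundling protein that also binds the Z-disc, went from 255, 289 and 322 to 181, 200 and 236 CPM (log2 change -0.48 ± 0.09, edgeR adjusted p 0.000885). Myom2, the M-band protein of fast fibres, fell by 0.37 ± 0.09 on the log2 scale, from 617 to 683 CPM in uncontracted muscle to 448 to 616 CPM. Tcap and Synpo were the 2 lower genes among 40 tested genes of mechanical stress and the Z-disc, of which 11 rose and 27 did not pass (32.5% called, beside 7.56% of all tested genes). The steepest risers of that list were Ankrd1, a titin-binding stress protein (log2 change 5.89 ± 0.29), and Xirp1, which gathers at sites of myofibre damage (3.83 ± 0.23). In the fast fibre list 21 of 22 tested genes did not pass. The kinase Mylk4 was the exception (log2 change -0.64 ± 0.15, edgeR adjusted p 0.00905). None of the 14 tested slow fibre genes passed.

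**Figure D2:**
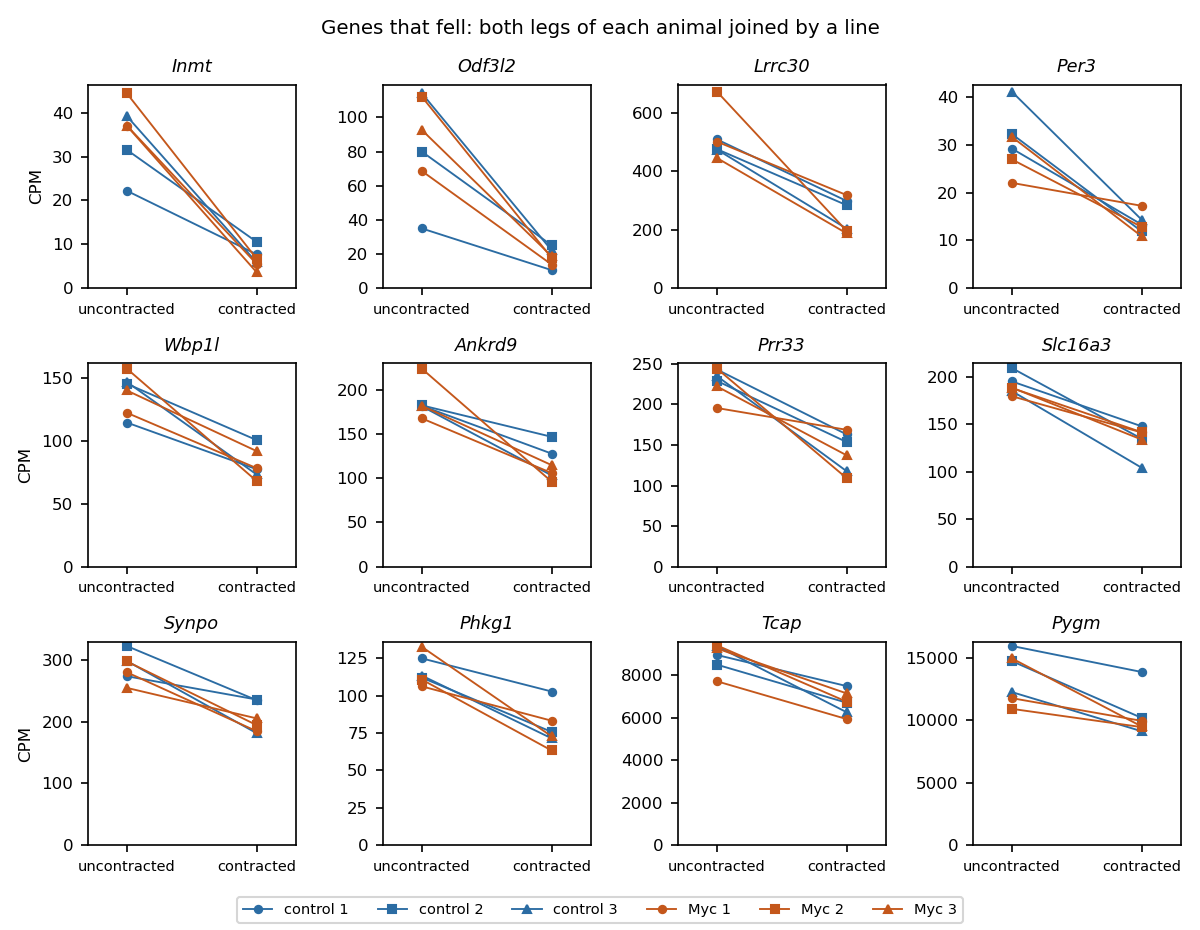
CPM of 12 genes that fell, with both legs of each animal joined by a line, control in blue and Myc in orange, and every axis starting at 0. All 72 lines slope down, and only for Pygm does a contracted library (control 1, 13872 CPM) exceed an uncontracted one.

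Some lower genes are known from vessels and stroma rather than the myofibre. Besides Gpihbp1, Acta2, the actin of smooth muscle, went from 51.0, 59.6 and 79.7 to 34.3, 42.2 and 50.4 CPM, just without overlap (log2 change -0.55 ± 0.13, edgeR adjusted p 0.0102). Ramp2, the co-receptor of adrenomedullin in endothelium, fell in 5 of 6 animals (-0.81 ± 0.16), and its exons overlap Vps25 on the same strand. Most tested members of these marker lists were not called. Of 23 tested endothelial markers 1 fell (Gpihbp1) and 1 rose (Rgcc), a share of 8.70% called that is near the 7.56% of all tested genes. The list's summed levels were 765 to 993 CPM in uncontracted and 811 to 979 CPM in contracted libraries. Of 13 tested smooth muscle and pericyte markers 1 fell (Acta2), a share of 7.69% called. Still, 10 of the 13 had a negative log2 change, with a median of -0.23. By animal the list's median was -0.31 to -0.18 except in Myc 1, where it was 0.03. Its summed levels were 10449 to 17890 against 10902 to 12417 CPM, of which Acta2 was a small part. Of 20 tested fibroblast markers 1 fell (Inmt) and 1 rose (Ly6a, 0.64 ± 0.16), with sums of 1265 to 2222 against 1206 to 1968 CPM. The macrophage list held 2 lower genes, C1qa (-0.59 ± 0.16) and Csf1r (-0.56 ± 0.16), and 1 higher, Lgals3, among 12 tested, a share of 25.0% called, with sums of 291 to 635 against 308 to 489 CPM. Neither lower call remained without contracted control 2, and neither without contracted control 3. C1qa was also lost without contracted Myc 2, and Csf1r in 7 of the 12 fits in all. The part of these cell types in the falls was not tested.

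The remaining small falls gave some of the tightest separations. Wbp1l, a WW-domain binding protein, went from 115, 143 and 158 to 68.3, 78.1 and 101 CPM, with the smallest p of the genes that fell by less than 2-fold (log2 change -0.75 ± 0.11, edgeR adjusted p 6.50e-05). Nctc1, a long non-coding RNA from the Igf2 and H19 region, went from 473, 552 and 670 to 263, 291 and 412 CPM (-0.77 ± 0.12, edgeR adjusted p 9.58e-05). Ankrd9, a substrate adaptor of cullin ligases, changed from 168, 182 and 224 to 96.3, 111 and 147 CPM (-0.69 ± 0.11), and Prr33, an uncharacterised muscle gene, from 196, 232 and 244 to 109, 145 and 169 CPM (-0.69 ± 0.11). None of these 4 genes overlapped between the legs. Asb14, an ubiquitin ligase adaptor of muscle (-0.65 ± 0.12), and Ppcs, an enzyme of coenzyme A synthesis (-0.90 ± 0.20), also fell without overlap. Faap100, a Fanconi anaemia core protein (-0.72 ± 0.14), fell in 6 of 6 animals with overlapping ranges. Chac1, a glutathione-degrading enzyme driven by ATF4, fell (-0.61 ± 0.16) although Atf4 itself rose, and it missed the threshold without contracted control 2 (0.0565).

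The genes that rose by less than 2-fold began with proteins that stabilise the myofibre. Cryab (ENSMUSG00000032060, chr9:50751325-50756636, plus strand), the small heat shock protein that guards desmin and titin, went from 346, 463 and 579 CPM to 726, 861 and 975 CPM. Every contracted library was above every uncontracted one. The log2 change was 0.94 ± 0.10 with an edgeR adjusted p of 4.28e-07. Its exons overlap Hspb2 on the opposite strand. Cavin1 (chr11:100956733-100970887, minus strand), a coat protein of caveolae, the membrane pits that buffer stretch, went from 367, 404 and 430 to 603, 720 and 820 CPM, a log2 change of 0.83 ± 0.09 with an edgeR adjusted p of 7.87e-07. Its muscle relative Cavin4 rose by 0.92 ± 0.15 and the caveolar scaffold Cav3, outside the naming rule, by 0.39 ± 0.09. Bag3, the co-chaperone that clears damaged filamin, rose from 123 to 140 CPM to 160 to 261 CPM (0.69 ± 0.11). In the list of small heat shock proteins and chaperones 12 of 44 tested genes rose (27.3%, beside 5.71% of all tested genes), 4 of them by less than 2-fold, and none fell, with a median log2 change of 0.17.

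Lmna, which encodes the nuclear lamins A and C, and Asb5, an ubiquitin ligase adaptor of muscle, are shown with their promoters as the genes with the smallest p among small risers whose window held one of the motifs searched other than the GC box. They are RefSeq windows of the same length on GRCm38.p6, chr3:88503303-88503602 (minus strand) for Lmna and chr8:54550081-54550380 (plus strand) for Asb5. Capitals mark an AP-1 site (TGANTCA), 39 bases downstream of the start, in Lmna, and a CArG box and TATA boxes (TATAAA, on either strand) in Asb5.
Lmna: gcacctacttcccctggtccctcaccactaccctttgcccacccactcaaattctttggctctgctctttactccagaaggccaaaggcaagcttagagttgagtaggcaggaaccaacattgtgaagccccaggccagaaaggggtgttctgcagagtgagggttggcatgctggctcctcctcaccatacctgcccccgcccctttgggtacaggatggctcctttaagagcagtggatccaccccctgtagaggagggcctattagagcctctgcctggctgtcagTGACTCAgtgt
Asb5: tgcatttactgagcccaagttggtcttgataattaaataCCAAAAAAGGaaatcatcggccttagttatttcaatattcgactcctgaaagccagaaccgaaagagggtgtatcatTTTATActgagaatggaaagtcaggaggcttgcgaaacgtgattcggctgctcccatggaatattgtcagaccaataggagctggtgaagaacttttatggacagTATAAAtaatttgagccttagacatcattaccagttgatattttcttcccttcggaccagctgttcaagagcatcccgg
Lmna went from 63.2, 84.7 and 112 CPM to 143, 166 and 197 CPM (log2 change 0.95 ± 0.12, edgeR adjusted p 1.48e-05), and Asb5 from 41.9, 49.1 and 55.8 to 66.1, 91.8 and 103 CPM (0.85 ± 0.12, edgeR adjusted p 3.17e-05), both without overlap. The AP-1 site, bound by Fos and Jun proteins, was held by 12.3% of 154 promoters of genes that rose by 2-fold or more. It was held by 8.99% of 178 promoters of genes that rose by less, by 3.19% of 94 of genes that fell by less than 2-fold, and by 5.13% of all 6068. The CArG box, bound by serum response factor, was in 7 of the 178 promoters of small risers (3.93%), in 0 of the 94 of small fallers and in 1.52% of all. Among the same 94 promoters the E-box (CACGTG) was held by 9.57%, and by 10.6% of all promoters. These shares describe the letters in these windows only and were not tested.

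Other cytoskeletal, membrane and signalling genes rose by similar steps. Ahnak, a giant scaffold of the cell cortex, went from 106, 124 and 140 to 173, 208 and 242 CPM (log2 change 0.75 ± 0.10, edgeR adjusted p 1.89e-05). Klhl30, a kelch protein of muscle, went from 61.6, 71.1 and 94.6 to 112, 126 and 140 CPM (0.77 ± 0.11). Arf6, a GTPase of membrane recycling, went from 19.4, 22.8 and 27.0 to 39.2, 41.5 and 46.2 CPM (0.90 ± 0.13). These 3 genes were clear of overlap in every library. The same held for Twf2, an actin-capping protein (0.99 ± 0.14), Cd63, a tetraspanin of lysosomes and exosomes (0.72 ± 0.10), Ets2, a transcription factor (0.83 ± 0.12), Clu, a secreted chaperone (0.81 ± 0.12), Tgm2, a crosslinking enzyme (0.84 ± 0.13), Vim, the intermediate filament of non-muscle cells and regenerating fibres (0.79 ± 0.13), and Nrap, an actin adaptor of assembling myofibrils (0.77 ± 0.13). Twf2 and Ano6 lay just inside the 2-fold line, both with a log2 change of 0.99, and Lgals3 and Clint1 just outside, at 2.004- and 2.05-fold, so the line divides genes of nearly equal change.

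**Figure D3:**
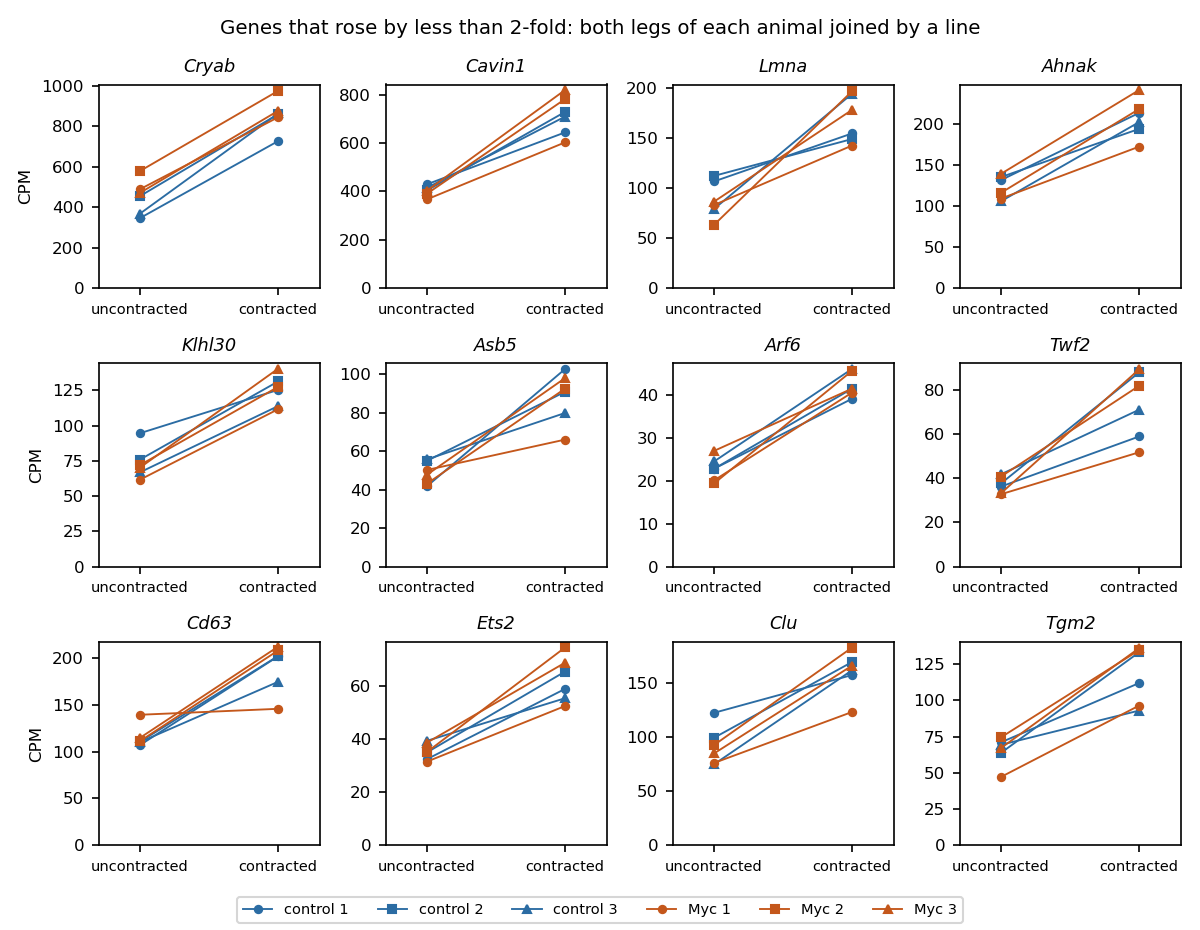
CPM of the 12 named genes with the smallest p among those that rose by less than 2-fold, with both legs of each animal joined by a line, control in blue and Myc in orange, and every axis starting at 0. All lines slope up, from Arf6 near 20 CPM to Cryab above 900 CPM.

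Atf4, the transcription factor of the integrated stress response, went from 279, 334 and 425 to 421, 534 and 672 CPM (log2 change 0.69 ± 0.12, edgeR adjusted p 0.000408). It was higher in 6 of 6 animals, with a slight overlap (421 against 425 CPM). Brd2, an acetyl-histone reader (0.72 ± 0.12), Top1, the topoisomerase that relieves transcribed DNA (0.83 ± 0.14), Mcl1, a short-lived survival protein (0.74 ± 0.13), and Nrip1, a co-repressor of nuclear receptors (0.94 ± 0.17), rose in each animal. Eif4ebp1, the inhibitor of cap-dependent translation, went from 20.3, 25.3 and 31.9 to 38.6, 41.2 and 49.4 CPM (0.72 ± 0.14, edgeR adjusted p 0.00145) without overlap. Tgfb2, a transforming growth factor, rose by 0.85 ± 0.18 on the log2 scale. Of 60 tested translation factors and tRNA synthetases 5 rose (8.33%, beside 5.71% of all tested genes) and none fell, and 2 were called higher without contracted control 3 or uncontracted control 1. Of 54 tested genes of rRNA processing 5 rose, led by Wdr43, a nucleolar protein (0.65 ± 0.15, edgeR adjusted p 0.00922), and 1 was called higher without uncontracted control 1. That share of 9.26% also stands beside 5.71% of all tested genes. The rRNA processing list had a median log2 change of 0.44 in libraries labelled control and 0.06 in those labelled Myc, and the genotype labels of 4 contracted libraries are in doubt, as stated for Myc.

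Haemoglobin and ribosomal RNA genes were among the calls, and neutrophil markers had more reads in contracted muscle. The haemoglobin gene Hba-a1 went from 76.7, 85.3 and 105 to 106, 152 and 244 CPM (log2 change 0.88 ± 0.14, edgeR adjusted p 0.000190), and it cannot be cleanly separated from its near-identical copy Hba-a2 (0.74 ± 0.20). Of 6 tested red cell markers 4 rose (66.7%, beside 5.71% of all tested genes), and the 11 listed summed to 438 to 571 CPM in uncontracted and 502 to 1147 CPM in contracted libraries. In control 2 and Myc 2 that sum was lower in the contracted leg (502 against 541 CPM and 521 against 571 CPM). The count dropped to 2 without contracted Myc 3, uncontracted Myc 2 or uncontracted Myc 3. The mitochondrial ribosomal RNA mt-Rnr1 went from 894, 1087 and 1258 to 1251, 1782 and 2473 CPM (0.79 ± 0.15), and mt-Rnr2 from 1735, 2496 and 3121 to 2719, 4315 and 6382 CPM (0.87 ± 0.18). The unnamed gene model Gm42418, given after its values were seen since it carried 22.6% of the CPM gained by the genes that rose by 2-fold or more, went from 676, 1391 and 2951 to 1222, 4772 and 10471 CPM (log2 change 1.76 ± 0.42, edgeR adjusted p 0.00907). It was higher in 4 of 6 animals, it missed the threshold without contracted control 3 (0.0590), and its log2 change was 0.11 without the 4 contracted libraries numbered 2 and 3. The 17 neutrophil markers, too low to be tested, summed to 4.28 to 7.62 CPM in uncontracted and 12.8 to 90.6 CPM in contracted libraries, with Ly6g, Cxcr2 and Csf3r at 0 in all 12. S100a8, a neutrophil calcium-binding protein, had at most 4 reads in any uncontracted library and 3 to 71 in the contracted ones. S100a9, also on the list, had at most 1 and 1 to 30. These 2 genes made up much of the highest sum, that of contracted control 3, with 71 and 30 reads of 0.676 CPM each. The part of these RNAs in the other results was not tested.

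Pooling both genotypes called 202 genes (44.9% of the 450) that were called in neither genotype alone, and 173 of them changed by less than 2-fold. On the same 5956 genes, contraction was called for 172 genes (2.89%) in the libraries labelled control and 227 (3.81%) in those labelled Myc, which share all their libraries with the pooled fit. Of the 110 lower genes 70 were called in neither genotype alone, 18 in control alone, 15 in Myc alone and 7 in both. Rnh1, the ribonuclease inhibitor, is the clearest small example: it went from 31.9, 34.2 and 37.4 CPM to 43.6, 50.2 and 53.2 CPM without overlap, and its log2 change was 0.52 in control, 0.53 in Myc and 0.53 ± 0.11 over both (edgeR adjusted p 0.00323). Vgll2, a TEAD cofactor of the myogenic programme (0.64 ± 0.13), Filip1, a filamin regulator (0.98 ± 0.21), and Yipf5, a Golgi membrane protein (0.70 ± 0.15), belonged to the same class, as did Tcap, Ppcs, Acvr1b, Ddit4 and Acta2 among the lower genes. The difference in contraction response between the genotype labels was called for 0 genes by edgeR, with 298 (5.0%) at an unadjusted p under 0.05. The labels of contracted libraries 2 and 3 of either genotype are in doubt. This test and the calls by genotype therefore cannot show whether the response differed by genotype.

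Direction was shared across animals for most of the called genes. Of the 450, 353 had the same sign in 6 of 6 animals as labelled, against 724 of all 5956 tested genes (12.2%), and 221 did not overlap between the 6 contracted and 6 uncontracted libraries, against 232 of all genes (3.9%). The 450 were called on these same 12 libraries, so such high shares follow largely from the selection and are no separate support. Among the 110 lower genes 86 fell in 6 of 6 animals and 24 in 5 of 6. When the genes were called in 5 animals and then measured in the animal left out, 94.4 to 97.2% kept their sign in control 2, control 3, Myc 2 and Myc 3. In control 1 and Myc 1 only 73.7% and 73.0% did, where all tested genes gave 56.2% and 52.8%. All tested genes gave 61.7 to 64.1% in the other animals. The lower genes by themselves kept their sign for 69.2% in control 1, 73.8% in Myc 1 and 86.7 to 98.2% in the others. For lower genes the median change in the left-out animal, taken in the called direction, was 0.18 on the log2 scale in control 1 and 0.18 in Myc 1, and 0.57 to 0.66 in the others. The animals numbered 1 thus had smaller changes, and their part in the small folds was not tested. Without the 4 contracted libraries numbered 2 and 3, whose Myc reads went against their labels, only those of control 1 and Myc 1 were left on the contracted side, and 110 genes were called, 98 higher and 12 lower. The calls that fell by less than 2-fold numbered 7 there, and those that rose by less than 2-fold 26. Inmt, Odf3l2, Per3, Lrrc30, Ucp3, Wbp1l, Ankrd9, Foxo1, Ppp1r3c and Synpo were the 10 lower genes called in both that fit and the one on all 12 libraries.

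**Figure D4:**
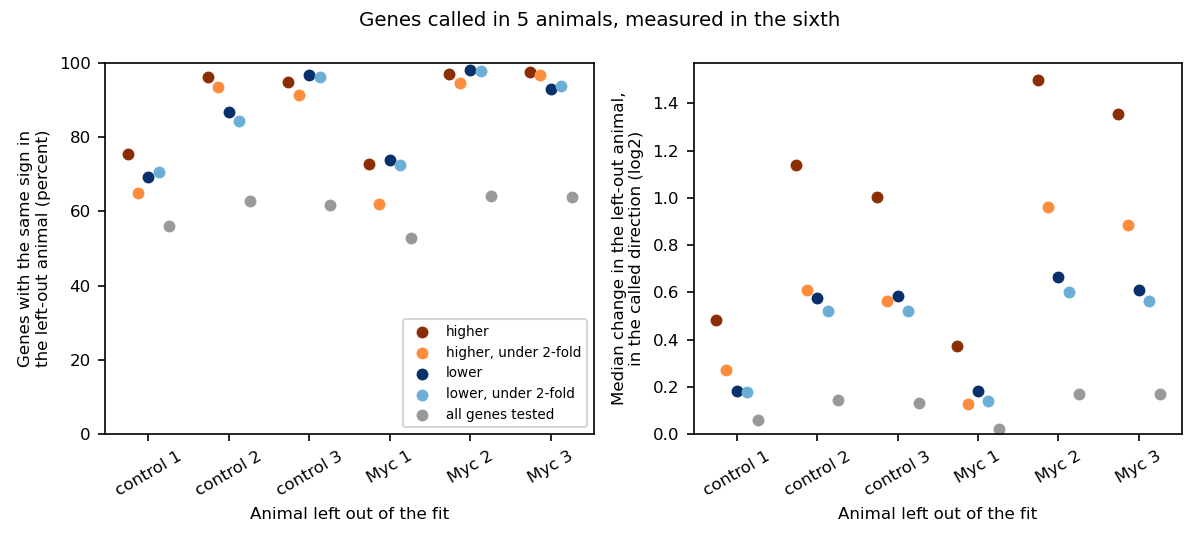
For each animal left out of the fit, the left panel gives the percent of genes called in the other 5 animals that had the same sign in it, and the right panel the median log2 change in the called direction, by class of gene. Called genes lie above all tested genes (grey) in each animal, and control 1 and Myc 1 lie lowest, at 73.7% and 73.0% over all called genes.

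A single library could move the number of falling genes. The 110 lower calls became 169 without contracted control 1, 63 without contracted control 3 and 69 without contracted Myc 2. The calls that fell by less than 2-fold became 158, 54 and 60 in those fits and 66 without contracted control 2, while those that rose by less than 2-fold became 115 without contracted Myc 2 or contracted Myc 3. In all 12 such fits 286 of the 450 genes were called (63.6%): 9 of 9 that fell by 2-fold or more, 46 of 101 that fell by less, 151 of 165 that rose by 2-fold or more and 80 of 175 that rose by less.

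Several large functional classes gave no calls. None of the 79 tested cytosolic ribosomal proteins, 31 proteasome subunits or 7 mitochondrially encoded messenger RNAs passed the edgeR test, with median log2 changes of 0.01, 0.09 and 0.03. The ribosomal protein median of 0.01 was made up of 0.21 in the libraries labelled control and -0.19 in those labelled Myc. At the other end 11 of 18 tested immediate early genes rose (61.1%, beside 5.71% of all tested genes) and none fell, with a median of 1.01. In the list of atrophy, ubiquitin ligase and autophagy genes 10 of 49 tested rose and 1 fell (Asb14), with a median of 0.03 and 22.4% called, beside 7.56% of all tested genes. Calcium handling and excitation genes split into 3 higher and 4 lower among 42 tested (16.7% called), and the lower calls were 0 without contracted control 3 or contracted Myc 3.

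**Figure D5:**
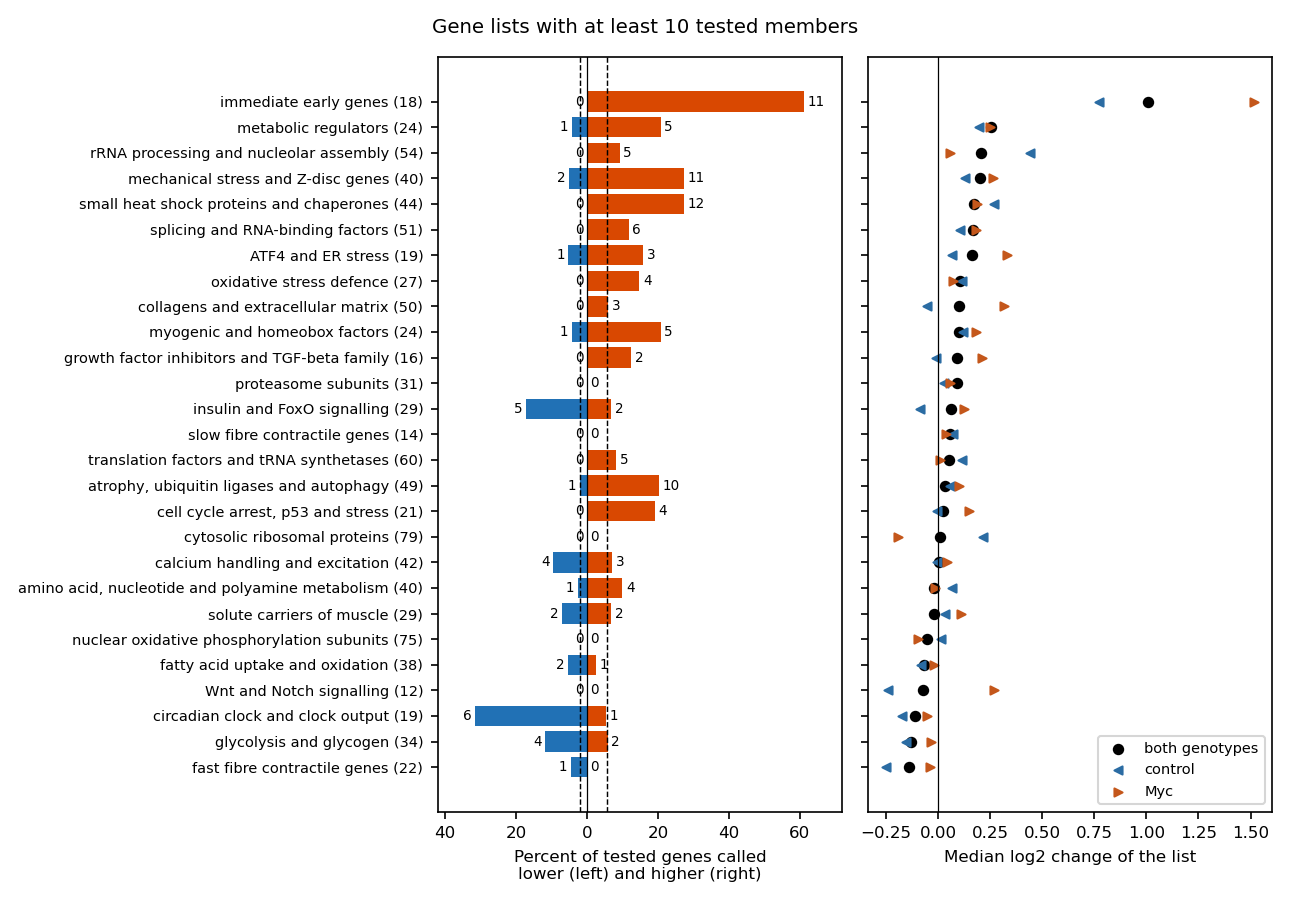
Left, the percent of tested members called lower (blue, to the left) and higher (orange, to the right) in each functional list with at least 10 tested members. The counts are printed at the bars, and dashed lines mark the share of all tested genes (1.85% lower and 5.71% higher). The marker lists are not drawn. Right, the median log2 change of each list over both genotypes and in each genotype as labelled; the clock list has the highest share of lower calls (6 of 19) and the immediate early genes the highest share of higher calls (11 of 18).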

How the data were processed

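The authors deposited whole-number counts of reads per gene for 12 libraries, made with a QuantSeq 3′ kit per the labels' protocols. Per the submitters' processing notes, the tools were HTSeq 0.6.0, SAMtools, STAR 2.5.2a and FastQC 0.11.5 and the build was mm10. Strand setting, annotation and filters are not given in the sources used here. Symbols matched 47224 of 47643 identifiers, and gene positions are from the reference annotation of GRCm38, the same assembly as mm10. Counts were scaled by TMM and tested with edgeR 4.0.16 in R 4.3.3 (filterByExpr, minimum count 10, leg as group, genotype plus leg, 2-sided quasi-likelihood F test, Benjamini-Hochberg threshold 0.05), which kept 5956 genes. Each SE is the size of the log2 change divided by the square root of F, so it restates the test. The p-values measure the spread of single libraries around the fitted genotype and leg effects. The 2 legs of an animal entered as independent, except in the fit with the animal as a block.

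Genes were named among calls with a mean of at least 5 CPM, leaving out unnamed models and pseudogenes: the 20 largest falls, the 15 falls and 20 rises under 2-fold and the 6 larger rises with the smallest p, the 10 most abundant calls under 2-fold, the 10 smallest p called in neither genotype alone, and up to 3 per gene list, 133 in all, of which the text gives a selection. The comparison, members and lists were chosen with earlier results of these data known. Legs were paired by animal as in the titles, and the deviations of the 2 legs of an animal from their group means correlated at -0.13 to 0.13 across genes. Between legs of different animals of the same genotype label the range was -0.21 to 0.19, so these values do not show which legs belong together. Alternatives were RLE size factors, library totals, other filters, robust dispersions, DESeq2 1.42.0, limma 3.58.1 (voom), the animal as a block, other designs, and fits without libraries or animals. Tests were checked on simulated data. Promoters (4721 of the tested genes had one) came from RefSeq and were searched on both strands for 9 motifs; these may overlap.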

Additional observations from a re-analysis of the deposited data

Results flagged for a closer look

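In a group of 6 legs, 1 library stood apart from the other 5 by Dixon's criterion for 15 of the 264 groups examined (5.68%), where chance gives about 1 in 20. Values that were high for their group were Lrrc30 in uncontracted Myc 2 (673 CPM), Ankrd9 in uncontracted Myc 2 (224 CPM), Brd2 (63.8 CPM), Top1 (68.7 CPM) and Met (12.9 CPM) in uncontracted control 3, Cd63 in uncontracted Myc 1 (140 CPM), and Asb14 (35.0 CPM) and Pygm (13872 CPM) in contracted control 1. Values that were low for their group were Ucp3 in uncontracted control 1 (23.5 CPM), Wdr43 in uncontracted control 2 (52.4 CPM), Tgm2 (47.2 CPM) and Mustn1 (74.2 CPM) in uncontracted Myc 1, Egr1 in uncontracted Myc 2 (1.88 CPM), Lgals3 in contracted Myc 1 (12.4 CPM) and Slc16a3 in contracted control 3 (104 CPM).

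In 2 lists the median of the members moved one way in all 3 animals labelled control and the other way in all 3 labelled Myc. Genes of cell cycle arrest and stress had medians of -0.10 to -0.01 in control and 0.08 to 0.29 in Myc animals, a difference of 0.20 between the middle animals on the log2 scale. Endothelial markers had medians of -0.17 to -0.08 and 0.03 to 0.10, a difference of 0.205. Neither difference was tested, and the genotype labels of 4 of the contracted libraries are in doubt.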

How the results depend on the processing

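In either direction 450 genes were called, and 696 with no low-count filter, 559 of them higher. Dropping both legs of an animal gave 290 to 537 calls (234 to 411 higher, 56 to 156 lower, 93 to 218 higher and 48 to 140 lower by less than 2-fold), and dropping 1 library 332 to 604 (263 to 435, 63 to 169, 115 to 248 and 54 to 158). With contracted libraries 2 and 3 of either genotype left out, the counts were 110, 98, 12, 26 and 7, in control libraries alone 167, 146, 21, 33 and 13, and in Myc libraries alone 238, 202, 36, 43 and 26, where fewer libraries were fitted. In glmTreat 66 genes passed beyond 2-fold, 119 beyond 1.5-fold and 252 beyond 1.2-fold. With the animal as a replicate block 406 genes were called, 317 higher and 89 lower, 397 of them in both fits, and 5 of the 133 named genes lost their call. DESeq2 called 397 and limma voom 417. No named gene changed direction under any alternative, and 83 lost their call without the 4 libraries. The strict filter left 69.3% of calls higher, against 75.6%. At a median of 1526524 reads a library, genes below about 10 reads in 6 libraries, Myc among them, were not tested.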
